A study of Mus musculus with 11 samples.

Results

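Dlx genes encode homeodomain transcription factors, and 6 of them, Dlx1 to Dlx6, were examined here in mouse mandibular arch together with the antisense transcripts Dlx1as and Dlx6os1. The members were all probe sets (groups of array probes for a transcript) whose single gene symbol in the array annotation is one of these 8 names, which gave 10 of the 45101 probe sets on the array. Dlx3 (1422037_at and 1450475_at) and Dlx4 (1420595_at and 1443591_at) have a pair of probe sets each. Dlx1 (1449470_at), Dlx2 (1448877_at), Dlx5 (1449863_a_at), Dlx6 (1452507_at), Dlx1as (1419845_at) and Dlx6os1 (1438799_at) have 1 each. They stand for 8 of the 18194 genes that the annotation names on the array. That the Dlx1as and Dlx6os1 probe sets detect the antisense strand was taken from the annotation and was not checked here.

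RNA of ICR mouse embryos was measured on 11 Affymetrix arrays, with the arch divided into a medial piece, taken at E10.5 from the distal end of the lingual swellings, and a lateral piece holding the rest. The groups were medial tissue at E9.7 (1 array), E10.5 (3 arrays), E11.5 (2 arrays) and E14.5 (1 array), and lateral tissue at E9.7 (1 array) and E10.5 (3 arrays). The labels name no treatment, and each time point's RNA is a pool of 40 embryos, so the arrays carry no spread between single animals and their p-values may measure technical spread. At E14.5 the label adds tongue and an anterior portion, so that group differs from the earlier ones in stage and in what was dissected. In pieces of tissue, fewer cells of a type and less RNA per cell cannot be told apart.

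In mouse arches, Dlx genes lie in pairs of neighbours, Dlx1 with Dlx2, Dlx3 with Dlx4 and Dlx5 with Dlx6, and are known for nested expression along the arch: Dlx1 and Dlx2 reach into the proximal and upper jaw regions, while Dlx5, Dlx6 and then Dlx3 and Dlx4 are restricted to the lower jaw side. Endothelin-1 signalling switches on Dlx5 and Dlx6, and mice without both develop a lower jaw that resembles an upper one. Dlx6os1, also called Evf2, is a long RNA that in mouse forebrain brings DLX and other proteins to the enhancers of Dlx5 and Dlx6. Dlx1as overlaps Dlx1 on the opposite strand.

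Promoter windows of 300 bases are shown because Dlx proteins bind a homeodomain core that can be looked for in them. RefSeq (build GRCm38.p6) gave windows for 3 of the 8 members, Dlx1, Dlx2 and Dlx6os1, the last with a pair of starts, each holding 250 bases before the start and 50 after it. Dlx3, Dlx4, Dlx5, Dlx6 and Dlx1as had no entry. Capitals mark the core TAATTA, which reads the same on either strand, and TAATTG, searched on both strands.
Dlx1, chr2:71529195-71529494, plus strand: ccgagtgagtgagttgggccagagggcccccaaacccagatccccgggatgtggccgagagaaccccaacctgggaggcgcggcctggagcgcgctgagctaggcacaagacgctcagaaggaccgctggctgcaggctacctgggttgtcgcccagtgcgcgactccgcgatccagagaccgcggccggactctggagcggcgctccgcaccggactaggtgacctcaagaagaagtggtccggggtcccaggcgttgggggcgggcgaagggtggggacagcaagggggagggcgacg
Dlx2, chr2:71546705-71547004, minus strand: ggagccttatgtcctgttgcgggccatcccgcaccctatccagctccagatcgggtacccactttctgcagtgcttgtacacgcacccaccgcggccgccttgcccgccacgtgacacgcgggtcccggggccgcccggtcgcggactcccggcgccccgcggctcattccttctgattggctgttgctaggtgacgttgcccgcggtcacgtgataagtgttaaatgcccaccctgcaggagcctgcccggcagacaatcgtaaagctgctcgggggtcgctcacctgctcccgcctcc
Dlx6os1, first start, chr6:6869484-6869783, minus strand: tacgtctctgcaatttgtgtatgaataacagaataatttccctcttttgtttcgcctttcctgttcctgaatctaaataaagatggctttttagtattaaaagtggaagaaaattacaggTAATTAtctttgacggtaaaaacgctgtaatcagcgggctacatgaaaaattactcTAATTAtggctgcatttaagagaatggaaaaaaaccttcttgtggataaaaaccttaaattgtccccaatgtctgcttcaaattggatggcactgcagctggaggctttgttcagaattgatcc
Dlx6os1, second start, chr6:6861634-6861933, minus strand: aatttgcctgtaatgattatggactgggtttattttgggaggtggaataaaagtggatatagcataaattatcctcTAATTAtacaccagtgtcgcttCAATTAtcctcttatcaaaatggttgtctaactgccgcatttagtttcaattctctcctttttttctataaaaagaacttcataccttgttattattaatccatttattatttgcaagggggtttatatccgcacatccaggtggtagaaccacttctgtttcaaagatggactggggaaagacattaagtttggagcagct

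The first Dlx6os1 window held 2 copies of TAATTA, beginning at bases 121 and 177 of the window, and the second held 1 copy, at base 77, and 1 of TAATTG. Neither core was in the Dlx1 or Dlx2 window. Among all 32851 windows of this length, 5.29% held TAATTA, 8.0% held TAATTG or its reverse complement, and 0.490% held at least 2 copies of TAATTA. The Dlx1 and Dlx2 windows were 69.3% and 66.3% G and C, and the Dlx6os1 windows 35.7% and 35.3%, against a median of 52.7% over all windows. These matches describe the letters of the windows only.

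Values below are log2 signals after quantile normalization, which gives the 11 arrays the same distribution. The median deposited value was 5.20 to 5.73 on 9 arrays but 2.37 on replicate 1 of medial E10.5 and 2.47 on replicate 1 of medial E11.5, so results that rest on these 2 arrays are also given without them. Genes entered the test if 2 or more of the 8 arrays from groups with replicates were at or above a log2 signal of 4.86, the median of all values. All 10 member probe sets passed. Dlx4 and Dlx1as did so through the lateral E10.5 arrays alone, so their passing required a difference between the pieces. The 6 markers of neural crest mesenchyme, the main site of Dlx expression in the arch, were above that level on all 11 arrays, with a mean signal of 9.71 to 9.99 in medial and 9.71 to 9.80 in lateral tissue at E10.5.

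At E10.5 the Dlx family was lower in medial than in lateral tissue. Of the 6 members that reached the filter level in both pieces, 5 were called lower and none higher (limma, Benjamini-Hochberg adjusted p under 0.05 over 11968 genes), where 1.8% of all genes tested were called lower and 4.63% in either direction. Dlx4 and Dlx1as were called lower too, making 7 of 8, but had entered through the lateral arrays alone. In the 6 members at the level in both pieces, every medial array lay under every lateral one. Such a lack of overlap held in 25% of all genes tested and, with medial tissue lower, in 12.9%. The arrays of Dlx4 and Dlx1as did not overlap either, but their entry through the lateral arrays alone fixed this. The median log2 difference of those 6 was -2.08, against -0.01 over all genes. Of the 10 probe sets fitted singly, 9 were called lower, against 1.06% of 24399. These 9 include both Dlx4 probe sets and that of Dlx1as, which had entered through the lateral arrays alone.

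**Figure D1:**
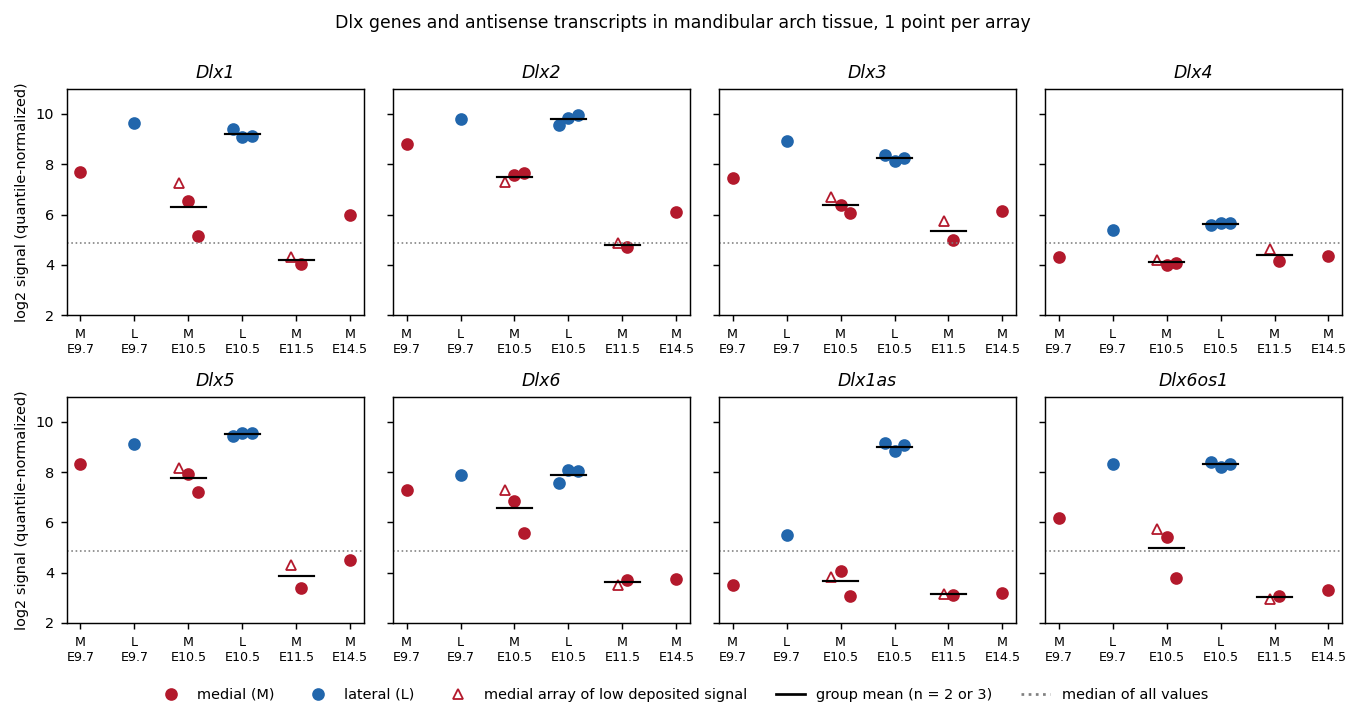
Quantile-normalized log2 signal (y axis) of the 8 members on each of the 11 arrays, by tissue and stage (x axis), 1 point per array, with the probe set of highest mean for each gene. Black bars are group means, open triangles the 2 medial arrays of low deposited signal, and the dotted line the median of all values (4.86). In each panel the medial E10.5 points lie below the lateral E10.5 points, and for Dlx1as the lateral E10.5 points (8.82 to 9.14) lie far above the lateral E9.7 point (5.51).

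Dlx1 and Dlx2 are the pair of genes with the widest reach along the arch. Dlx1 had 7.25, 6.54 and 5.16 log2 signal in medial E10.5 tissue, against 9.41, 9.07 and 9.13 in lateral tissue. The lateral arrays lay close together and the medial ones were spread more widely, with replicate 3 lowest. The log2 difference was -2.89 ± 0.43 (SE, n = 3 each, limma adjusted p = 0.00512), or 7.41-fold lower. Dlx2 had 7.28, 7.57 and 7.67 in medial and 9.57, 9.85 and 9.96 in lateral tissue. Here the medial arrays lay about as close together as the lateral ones, and replicate 3 was not low. The difference was -2.29 ± 0.15 (adjusted p = 7.56e-05).

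Dlx5 and Dlx6, the pair that gives the lower jaw its identity, had smaller differences, which were not tested against those of other members beyond the pairs given further on. Dlx5 had 8.16, 7.93 and 7.22 in medial and 9.43, 9.54 and 9.55 in lateral tissue, a difference of -1.73 ± 0.28 (adjusted p = 0.00778). Dlx6 had 7.29, 6.84 and 5.59 in medial and 7.57, 8.07 and 8.05 in lateral tissue. Its groups did not overlap, but the highest medial and lowest lateral arrays were close. The difference was -1.32 ± 0.37 (adjusted p = 0.0979), with a 95% interval of -2.17 to -0.48, and did not pass. With single arrays left out it passed in 1 of 6 settings, without medial replicate 1 (-1.68, adjusted p = 0.0255), and was smallest without medial replicate 3 (-0.83, adjusted p = 0.0697).

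Dlx3 and Dlx4 are the pair expressed nearest the distal lower jaw in nested maps of the mouse arch, and Dlx3 is also active in skin, tooth and placenta. Dlx3 (1450475_at) had 6.71, 6.39 and 6.08 in medial and 8.38, 8.14 and 8.26 in lateral tissue, a difference of -1.87 ± 0.22 (adjusted p = 0.00130). Its other probe set, 1422037_at, was dimmer and had 4.92, 4.76 and 4.96 against 6.19, 5.83 and 6.10, a difference of -1.16 ± 0.16 in the fit over 24399 probe sets (limma adjusted p = 0.00553). The direction was the same and the size differed between the probe sets. Dlx4 (1420595_at) had 4.20, 4.00 and 4.09 in medial and 5.58, 5.66 and 5.67 in lateral tissue, a difference of -1.54 ± 0.14 (adjusted p = 0.000396). All medial values of Dlx4 lay under the median of all values, so its fold is uncertain. Its second probe set, 1443591_at, had 4.00, 4.00 and 3.62 against 5.96, 5.89 and 5.94 (-2.06 ± 0.18, adjusted p = 0.000720 over probe sets).

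The antisense transcripts had the largest differences of the members. Dlx1as had 3.83, 4.07 and 3.06 in medial and 9.14, 8.82 and 9.06 in lateral tissue. Every medial array was at dim signal and every lateral one was bright. The difference was -5.35 ± 0.23 (adjusted p = 1.07e-05). The medial signals were not shown to be above background, so the size of this difference is uncertain. Dlx6os1 had 5.73, 5.43 and 3.81 in medial and 8.42, 8.20 and 8.34 in lateral tissue, with medial replicate 3 again lowest, as for Dlx1, Dlx5 and Dlx6. Its difference was -3.33 ± 0.42 (adjusted p = 0.00199), or 10.0-fold lower. Its lowest medial array was also under the median of all values.

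**Figure D2:**
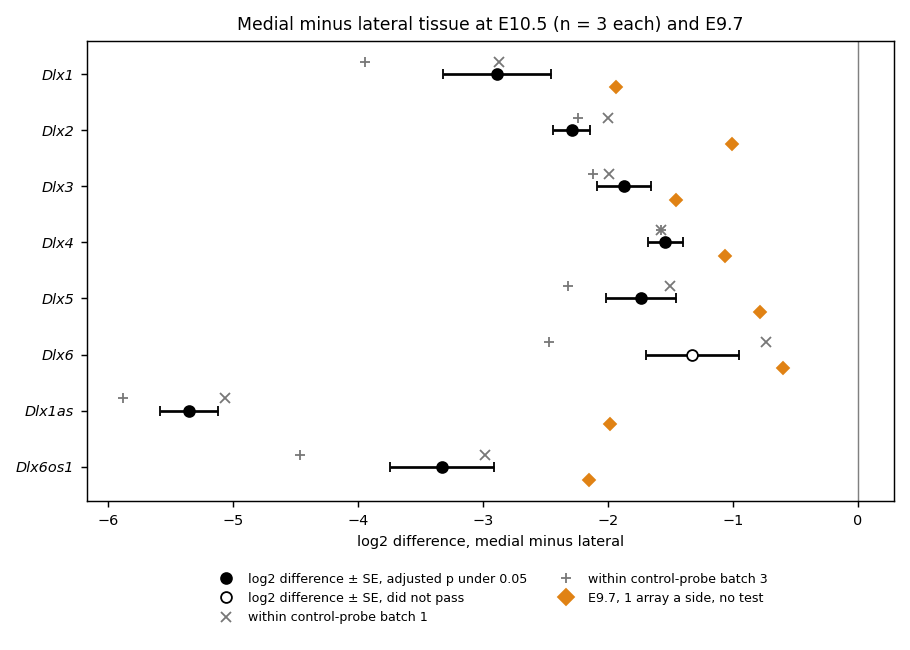
Log2 difference of medial minus lateral tissue (x axis) for the 8 members (rows). Black points are E10.5 differences ± SE (n = 3 each; open where the test did not pass), grey marks the differences within the control-probe batches 1 and 3, and orange diamonds the E9.7 differences with 1 array a side. Every mark lies below 0, from -5.88 for Dlx1as within batch 3 to -0.60 for Dlx6 at E9.7.

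Partners of a locus were compared within each array, since an array's scale cancels there. The medial minus lateral difference of Dlx1as minus that of Dlx1 was -2.46 log2 units, and that of Dlx6os1 minus that of Dlx6 was -2.0. In these pairs no medial array reached the lateral range (exact two-sided permutation test over 20 splits, p = 0.10, the smallest that 3 arrays against 3 allow, and adjusted p = 0.25 over 5 pairs). The other pairs gave smaller values: -0.60 for Dlx1 against Dlx2 (exact p = 0.50, adjusted p = 0.50), -0.41 for Dlx5 against Dlx6 (exact p = 0.30, adjusted p = 0.375) and -0.33 for Dlx3 against Dlx4 (exact p = 0.20, adjusted p = 0.333). With this design no pair could pass the threshold.

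Arrays were sorted into batches by how alike they were in 24 control probe sets for spiked-in RNA, and medial minus lateral differences could be formed in batch 1 (1 array a side) and batch 3 (1 medial and 2 lateral arrays). Within batch 1 the differences were -2.87 for Dlx1, -2.0 for Dlx2, -1.99 for Dlx3, -1.58 for Dlx4, -1.50 for Dlx5, -0.74 for Dlx6, -5.07 for Dlx1as and -2.99 for Dlx6os1. Within batch 3 they were -3.95, -2.24, -2.12, -1.58, -2.32, -2.47, -5.88 and -4.46 in the same gene order. All members were lower in medial tissue in each batch, and Dlx6 varied most between them. Without both arrays of low signal, the same count of 7 members was called, with Dlx6 at -1.68 (adjusted p = 0.0546). With the values as deposited, on which these arrays stand apart, all 8 differences kept their sign but Dlx1as alone was called.

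Other cell types moved with the pieces. Among all genes tested at E10.5, 2.82% were called higher in medial tissue and 1.8% lower. Of 9 epithelial markers, 7 were higher in medial tissue and none lower, with a mean signal of 7.97 to 8.11 in medial and 7.16 to 7.30 in lateral tissue. Of 5 endothelial markers, 2 were higher, with 7.32 to 7.41 in medial and 6.77 to 6.93 in lateral tissue. None of 6 mesenchyme markers and none of 4 red cell markers was called (11.7 in medial, and 11.7 to 11.8 in lateral tissue). Of 6 muscle markers 1 was lower, and of 3 tested neuronal markers Isl1 was higher, a gene that arch mesenchyme also expresses. The part of these cell types in the Dlx differences was not tested.

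At E9.7 the same direction was seen with 1 array a side and no test. All 8 members were lower in medial tissue, 6 of them by at least 2-fold, as were 0.667% of 11252 genes compared. Dlx4 and Dlx1as are in both counts, but only their lateral array was above the median of all values. They entered the comparison through that array alone, which fixed the direction of their differences. Dlx6os1 had 6.17 in medial and 8.33 in lateral tissue, a difference of -2.15. Dlx1as had 3.53 in medial and 5.51 in lateral tissue, Dlx1 had 7.70 in medial and 9.63 in lateral tissue, and Dlx3 had 7.47 in medial and 8.93 in lateral tissue. Dlx4 (4.33 in medial, 5.40 in lateral) and Dlx2 (8.80 in medial, 9.81 in lateral) were near the 2-fold limit, but the other Dlx4 probe set, 1443591_at, had 4.56 in medial and 6.64 in lateral tissue, a difference of -2.08. Dlx5 (8.34 in medial, 9.12 in lateral) and Dlx6 (7.27 in medial, 7.87 in lateral) differed by -0.78 and -0.60 and stayed under it. On the probe sets that stand for the genes, all 8 differences were smaller in size at E9.7 than at E10.5. The second probe sets did not share this: 1422037_at of Dlx3 was at -1.16 at E10.5 and -1.34 at E9.7, and 1443591_at of Dlx4 at -2.06 at E10.5 and -2.08 at E9.7. The change between the stages was not tested.

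In lateral tissue between E9.7 and E10.5, Dlx1as was the 1 member of 8 at least 2-fold apart, with no test. Dlx1as had 9.14, 8.82 and 9.06 in lateral tissue at E10.5, against 5.51 on the single E9.7 array. Each E10.5 array was above it by more than 3 log2 units, the mean difference was 3.50, and within batch 1 it was 3.63. Of 11805 genes compared, 0.949% were at least 2-fold higher on every E10.5 array, and the Dlx1as mean difference was the second highest. Its overlapping partner Dlx1 had 9.07 to 9.41 at E10.5 and 9.63 at E9.7, and Dlx2 had 9.57 to 9.96 at E10.5 and 9.81 at E9.7. Dlx6os1 was at 8.20 to 8.42 at E10.5 and 8.33 at E9.7. On the probe sets that stand for the genes, the other lateral differences (later minus earlier stage) lay between -0.67 for Dlx3 and 0.38 for Dlx5. The second Dlx4 probe set, 1443591_at, was at -0.71.

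In medial tissue over the same step, Dlx2 was the member at least 2-fold lower on every E10.5 array than on the E9.7 array (7.28 to 7.67 against 8.80), as were 0.351% of 11972 genes. Dlx1 (5.16 to 7.25 against 7.70), Dlx3 (6.08 to 6.71 against 7.47), Dlx5 (7.22 to 8.16 against 8.34) and Dlx6os1 (3.81 to 5.73 against 6.17) also lay below the E9.7 array on every E10.5 array. None of these did so by 2-fold on each. The mean difference of Dlx3 was -1.08 on 1450475_at but -0.36 on its dimmer probe set, 1422037_at. Within batch 1 the differences of E10.5 minus E9.7 were -1.16 for Dlx1, -1.23 for Dlx2, -1.08 for Dlx3 and -0.74 for Dlx6os1, and for Dlx5 and Dlx6 they were -0.41 and -0.43. Dlx1as and Dlx4 were under 4.86 on all medial arrays of both stages.

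Medial Dlx signal was lower again at E11.5. Relative to E10.5, 6 of the 8 members fell (limma adjusted p under 0.05), where 2.6% of all genes tested were called lower and 6.92% in either direction. The groups did not overlap for these 6, as in 28.4% of all genes and, with the later stage lower, in 13.6%. The members' median difference was -2.06, against 0.003 over all genes. Of the 10 probe sets fitted singly, 4 were called lower (Dlx1, Dlx2, Dlx5 and Dlx6), against 1.62% of 24399. The 3 medial E10.5 arrays also enter the comparison with lateral tissue, so the comparisons share them.

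Dlx5 fell most among the members: it had 4.32 and 3.37 in medial tissue at E11.5, against 8.16, 7.93 and 7.22 at E10.5. Both E11.5 arrays were below the median of all values, and the difference was -3.92 ± 0.31 (SE, n = 2 and 3, adjusted p = 0.000114). Its partner Dlx6 had 3.52 and 3.70, against 7.29, 6.84 and 5.59, a difference of -2.96 ± 0.42 (adjusted p = 0.00258). Dlx2 had 4.85 and 4.70, against 7.28, 7.57 and 7.67, a difference of -2.73 ± 0.16 (adjusted p = 2.78e-05). Both E11.5 arrays of Dlx1, Dlx2, Dlx6 and Dlx6os1 were also below the median of all values. The sizes of these falls and of that of Dlx5, and their order, are therefore uncertain. In the gene-level fit, Dlx2, Dlx5 and Dlx6 kept their calls whichever array was left out (fitted as a probe set, Dlx6 lost its call in 1 of 5 such settings, with adjusted p = 0.0535), and also without both arrays of low signal, where Dlx2 was at -2.91, Dlx5 at -4.20 and Dlx6 at -2.51.

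The other falls were less firm. Dlx1 had 4.33 and 4.03 at E11.5, against 7.25, 6.54 and 5.16 at E10.5 (-2.14 ± 0.48, adjusted p = 0.0313). It was not called without either E11.5 array, without medial E10.5 replicate 2 or without both arrays of low signal (-1.82, adjusted p = 0.115). Dlx6os1 had 2.95 and 3.08, against 5.73, 5.43 and 3.81 (-1.98 ± 0.47, adjusted p = 0.0373), and it passed only without medial E10.5 replicate 3 when single arrays were left out. Without both arrays of low signal it was at -1.54 (adjusted p = 0.223). Dlx3 (1450475_at) had 5.74 and 4.99, against 6.71, 6.39 and 6.08 (-1.03 ± 0.24, adjusted p = 0.0368), and was not called without medial E10.5 replicate 1 or 2 or medial E11.5 replicate 2. Its dimmer probe set 1422037_at had 5.14 and 4.65 against 4.92, 4.76 and 4.96 (0.01 ± 0.18), so the Dlx3 probe sets disagreed here, and the gene did not pass with their mean (-0.51, adjusted p = 0.176). With the values as deposited, none of the members was called.

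Dlx4 and Dlx1as, already dim in medial tissue at E10.5, were not called between the stages. Dlx4 had 4.63 and 4.14 at E11.5, against 4.20, 4.00 and 4.09 at E10.5 (0.29 ± 0.15, 95% interval -0.07 to 0.64). Its other probe set pointed the other way at -0.44 ± 0.21. Dlx1as had 3.15 and 3.12, against 3.83, 4.07 and 3.06 (-0.52 ± 0.26, 95% interval -1.11 to 0.08). All of these medial values were under the median of all values.

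**Figure D3:**
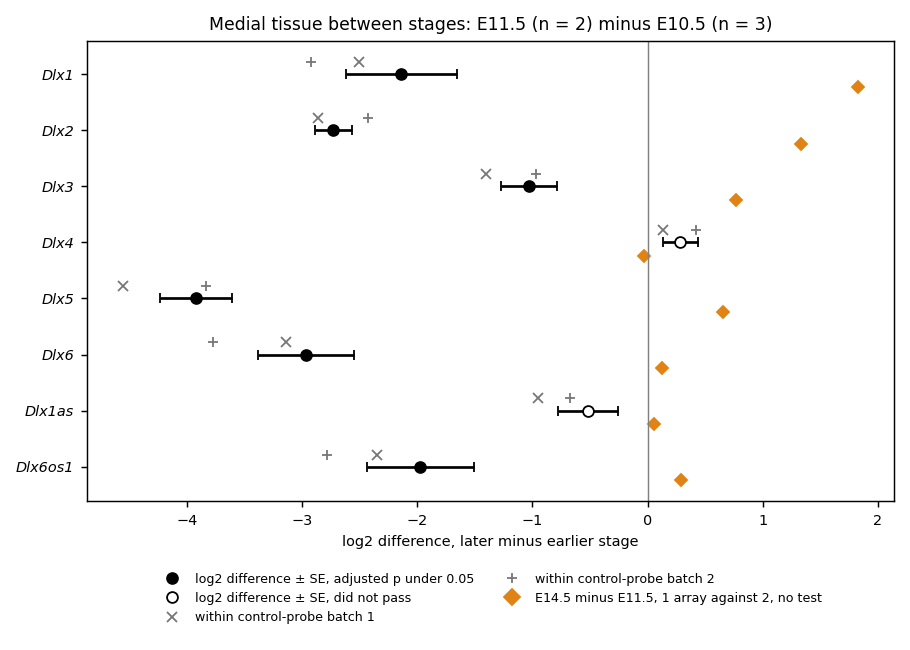
Log2 difference between stages of medial tissue (x axis, later minus earlier) for the 8 members (rows). Black points are E11.5 minus E10.5 ± SE (n = 2 and 3; open where the test did not pass), grey marks the differences within control-probe batches 1 and 2, and orange diamonds E14.5 minus E11.5 with 1 array against 2. Dlx5 lies lowest at -3.92, and at E14.5 Dlx1 (1.83) and Dlx2 (1.34) lie farthest to the right.

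Each E11.5 array had a medial E10.5 array in its own control-probe batch. Within batch 1 the differences were -2.51 for Dlx1, -2.87 for Dlx2, -1.40 for Dlx3, -4.55 for Dlx5, -3.14 for Dlx6 and -2.35 for Dlx6os1. Within batch 2, which holds the arrays of low signal, they were -2.93, -2.43, -0.97, -3.84, -3.78 and -2.78 in the same order. The tissue also changed between the stages, where 4.32% of all genes tested were called higher and 2.6% lower. Of 6 muscle markers 5 rose, with Actc1 highest at 5.84 ± 0.26 and Myod1 at 4.13 ± 0.18. Myl1 had E10.5 means of 2.66 in medial and 3.44 in lateral tissue. By these means it entered the test through the E11.5 arrays, which fixed its direction. The Myod1 means at E10.5, 4.37 and 4.85, were also under 4.86. Of 9 epithelial markers 8 fell. Of 6 mesenchyme markers 4 fell, Prrx1 (-2.13 ± 0.18) and Prrx2 (-1.81 ± 0.12) among them, and Pdgfra rose. The mean signal of the muscle list was 8.76 to 8.97 at E11.5 and 4.35 to 4.84 at E10.5. That of the mesenchyme list was 9.08 to 9.12 at E11.5 and 9.71 to 9.99 at E10.5, and that of the epithelial list 7.11 to 7.19 at E11.5 and 7.97 to 8.11 at E10.5. The part of these tissues in the fall of Dlx signal was not tested.

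At E14.5, in tissue labelled as anterior tongue, Dlx1 and Dlx2 were above both E11.5 arrays by at least 2-fold, as were 11% of 12566 genes compared, so such a rise was common. Dlx1 had 6.0 at E14.5, against 4.33 and 4.03 at E11.5, and Dlx2 had 6.11, against 4.85 and 4.70. The E11.5 values of both genes were under 4.86, so Dlx1 and Dlx2 entered the comparison through the E14.5 array alone. This entry fixed the direction of their differences, and the sizes are uncertain. Dlx3 had 6.13, against 5.74 and 4.99. Dlx5 (4.50), Dlx6 (3.73), Dlx4 (4.36), Dlx1as (3.19) and Dlx6os1 (3.30) were under the median of all values at E14.5. Of the members, only Dlx1, Dlx2 and Dlx3 were compared between these stages. With 1 array in its own control-probe batch, stage, dissection and batch cannot be told apart.

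Over all 6 groups, Dlx1 was highest in lateral tissue at E9.7 (9.63) and then E10.5 (mean 9.20), followed by medial tissue at E9.7 (7.70), E10.5 (6.31 ± 1.07, SD, n = 3), E14.5 (6.0) and E11.5 (4.18). The E14.5 value lay inside the medial E10.5 range. Dlx2 followed an order that began with the lateral groups, where the E9.7 value lay inside the E10.5 range, then medial E9.7, E10.5, E14.5 and E11.5. For Dlx5 the lateral E10.5 arrays (9.43 to 9.55) lay above the lateral E9.7 array (9.12), followed by medial E9.7 (8.34), whose value was just above the highest medial E10.5 array (8.16). Dlx1as had a single bright group, lateral E10.5, and then lateral E9.7 alone above the median of all values.

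Across the 11 arrays the likeness of the members varied from pair to pair. Pearson's r was 0.98 for Dlx5 with Dlx6, 0.94 for Dlx1 with Dlx2 and 0.97 for Dlx1 with Dlx6os1, but 0.80 for Dlx1 with its antisense Dlx1as. Dlx1as was closest to Dlx4 (0.91), but both were under 4.86 on every medial array and above it on the lateral arrays only. Their r values therefore include dim medial signals. The lowest values were 0.58 for Dlx4 with Dlx6, 0.61 for Dlx4 with Dlx5 and 0.69 for Dlx1as with Dlx6. These are descriptions over arrays that share batches and the contrast of tissue and stage.

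Among 11747 other genes, those most like each member except Dlx4, for which no search was made, were also taken over the same 11 arrays. They were Mab21l1 (r = 0.98), Kif5c (0.97) and Ap1s3 (0.97) for Dlx5, and Mab21l1 (0.97), Spin2c (0.97) and Irx5 (0.95) for Dlx6. Those of Dlx1 were Dtwd2 (0.97), Barx1 (0.97) and Kank4 (0.96). For Dlx2 they were Klhl12, Rcc1l and Asl (each 0.97), and for Dlx3 Bcat1 (0.96), Zbtb16 (0.96) and Enoph1 (0.95). For Dlx6os1 they were Trpm1 (0.97), the tooth and stomach homeobox gene Barx1 (0.96) and Bcat1 (0.96), and for Dlx1as Zadh2 (0.98), Zmat4 (0.97) and Emx2 (0.96). Barx1 is thus on the lists of both Dlx1 and Dlx6os1, and Mab21l1 leads those of both genes of the Dlx5 and Dlx6 pair.

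Neighbouring genes at the 3 loci were examined next: 3 named genes on each side, and named genes inside. Of 17 tested, 4 were lower and 1 higher in medial tissue at E10.5, beside 1.8% and 2.82% of all genes. The antisense RNA Dlx4os, which lies in or over the Dlx3 and Dlx4 interval, had the lowest value at -2.34 ± 0.16 (limma adjusted p = 9.18e-05). Its means were 4.21 in medial and 6.55 in lateral tissue. The medial mean was under 4.86, as was that at E11.5 (4.04), so the size is uncertain. By these means Dlx4os entered the test through the lateral arrays, which sets the direction, and it is among the 4 counted as lower. The others were Tac1 (-0.96 ± 0.20), a tachykinin precursor gene, Slc25a12 (-0.84 ± 0.11), a mitochondrial carrier gene, and Dync1i1 (-0.74 ± 0.17), a dynein chain gene whose locus is known for enhancers of Dlx5 and Dlx6. The integrin gene Itga6, which epithelia express, was higher at 0.85 ± 0.12 (adjusted p = 0.00435). Itga6 is the nearest coding gene on the Dlx2 side of its locus. Of the nearest coding genes on the other sides, Tac4 was too dim to test, and Metap1d (0.05 ± 0.18), Itga3 (0.12 ± 0.20), Sem1 (-0.20 ± 0.11) and Sdhaf3 (0.03 ± 0.23) were not called.

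**Figure D4:**
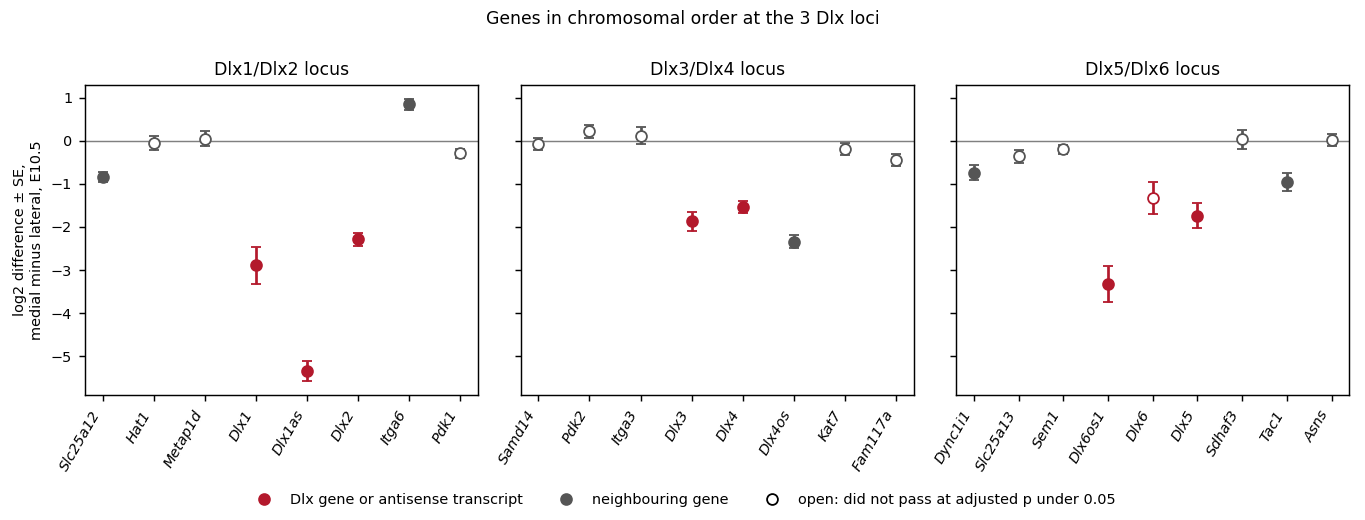
Log2 difference ± SE of medial minus lateral tissue at E10.5 (y axis) for Dlx genes and antisense transcripts (red) and neighbouring genes (grey), in chromosomal order at each locus (x axis, tested genes only). Open points did not pass at an adjusted p under 0.05. Red points lie at -1.32 or lower, and apart from Dlx4os (-2.34) no grey point lies below -0.96.

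Genes that act before and after Dlx in the arch were described by lists. Among all genes tested at E10.5, 2.82% were called higher in medial tissue and 1.8% lower, with a median of -0.01. Of 9 measured genes of the endothelin pathway, 2 were higher in medial tissue and none lower (median 0.18): the receptor gene Ednrb (1.12 ± 0.20, adjusted p = 0.0122) and Mef2c (0.60 ± 0.13, adjusted p = 0.0314), which encodes a factor that acts on Dlx5 and Dlx6. Ednra, also on that list, had no probe set assigned to it, so the receptor result is for Ednrb only. The ligand gene Edn1 was at 0.10 ± 0.20. Of 9 upstream signals and factors, Bmp4 was higher (1.96 ± 0.18) and Fgf8 lower (-1.93 ± 0.35), 1 in each direction (median -0.07). Of 11 measured genes reported to depend on Dlx5 and Dlx6 in mouse, 3 were higher and 4 lower (median -0.40). Hand1 (3.17 ± 0.36), Hand2 (1.45 ± 0.16) and Alx4 (0.74 ± 0.17) were higher, and Gbx2 (-3.98 ± 0.18), Barx1 (-3.47 ± 0.38), Pou3f3 (-2.61 ± 0.33) and Pitx1 (-1.80 ± 0.36) lower. Medial means were under 4.86 for Gbx2 (2.92, against 6.91 in lateral tissue), Pou3f3 (4.43, against 7.04) and Fgf8 (4.43, against 6.35). The lateral mean was under it for Alx4 (4.52, against 5.26). The sizes of these differences are uncertain, and Gbx2 entered the test through the lateral arrays. By their means, so did Fgf8 (4.17 in medial tissue at E11.5), while Alx4 (4.50 there) entered through the medial E10.5 arrays. Such entry sets the direction of a difference. The signs were mixed, and the list does not record which of its genes Dlx5 and Dlx6 raise or lower. Whether the genes follow the Dlx signal was therefore not tested.

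Of 6 competitors and binding partners of Dlx proteins, 4 were higher in medial tissue and none lower, beside 2.82% and 1.8% of all genes. The median of the list was 0.62. The 4 were Msx2 (1.61 ± 0.24), Msx1 (0.73 ± 0.17), Lmo4 (0.65 ± 0.13) and Ndn (0.59 ± 0.13). Msx proteins compete with Dlx proteins for DNA sites. Of 9 forebrain interneuron genes that Dlx1 and Dlx2 control there, 2 were tested, and Lhx6 was lower (-1.55 ± 0.27, adjusted p = 0.0122). Gad1, the enzyme gene of that program, was too dim to test.

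The lists were also read between E10.5 and E11.5 in medial tissue, where 2.6% of all genes were called lower and 4.32% higher. Msx1 (-3.47 ± 0.19) and Msx2 (-4.13 ± 0.27) fell, as Dlx5 and Dlx6 did, and 2 of 6 in their list were lower and none higher (median -0.19). Of the 11 Dlx-dependent genes, Irx5 (-2.21 ± 0.17) and Hand2 (-0.80 ± 0.17) fell and Pou3f3 (3.88 ± 0.37) and Gsc (0.77 ± 0.18) rose (median -0.36). Of 9 endothelin pathway genes Ednrb (2.59 ± 0.22) and Mef2c (0.95 ± 0.14) rose (median 0.10), and Mef2c is also a muscle gene. Of 9 upstream genes Tfap2a fell (-0.81 ± 0.16, median 0.08), and neither tested interneuron gene was called (median 0.21). Of 17 locus neighbours 1 rose and 3 fell (median -0.19), among them Itga6 (-1.26 ± 0.14) and Asns (-1.13 ± 0.15), while Dlx4os was at -0.17 ± 0.18.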

How the data were processed

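Affymetrix signals of mandibular arch tissue were analysed on 11 arrays in 6 groups. The authors deposited log2 signals, made with Affymetrix Expression Console 1.1, per the submitters' processing notes; the algorithm is not given in the sources used here, and the base was inferred from the range of 0.0887 to 14.5. The deposited values of 45101 probe sets were quantile-normalized, since 2 arrays lay on another scale. Symbols came from the platform annotation, updated through Entrez IDs with RefSeq names (GRCm38.p6): 34958 probe sets had 1 symbol, 932 several and 9211 none here.

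The probe set of highest mean stood for a gene (18194 genes). Fits used limma 3.58.1 in R 4.3.3 on the whole table with 1 mean per group and 5 residual degrees of freedom, and probe sets were also fitted singly. With 1 array on a side, values and 2-fold counts were given without a test. The number of arrays limits the precision. Batches were 4 clusters (Ward linkage) of 24 control probe sets. The rule for named genes took all members, called genes of the lists and up to 4 others per list, and the 3 nearest genes by Pearson's r per member. Alternatives were the deposited scale, median centring, filters, probe-set rule, limma options, a replicate block, batch as a term and leaving arrays out. The members, lists and tests were chosen with earlier results of these data known. The fit was tested on simulated data. Replicate numbers in the labels were not taken to pair the samples: correlations of deviations were 0.13, -0.29 and 0.48 for the same number between pieces at E10.5. Between medial E11.5 and E10.5, with 2 shared numbers, they were 0.59 and 0.39, on arrays that share a control-probe batch.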

Additional observations from a re-analysis of the deposited data

Results flagged for a closer look

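Between E9.7 and E10.5, Dlx5 and 1 of the Dlx4 probe sets (1420595_at) moved in opposite directions in the pieces on every array. Dlx5 was lower in medial tissue (E10.5 minus E9.7 -0.57) and higher in lateral tissue (0.38). Dlx4 on 1420595_at was lower in medial tissue (-0.23) and higher in lateral tissue (0.24), at signals near or under the median of all values. Its other probe set, 1443591_at, was lower at E10.5 in both pieces, by -0.69 in medial and -0.71 in lateral tissue. The E9.7 groups have 1 array each, so the difference between the tissues was not tested. The lateral Dlx5 value turned to -0.12 when arrays were centred on their medians.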

How the results depend on the processing

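At E10.5, medial against lateral, 7 members (9 probe sets) were called, 7 to 8 (8 to 10 probe sets) with single arrays left out, and 8 with array weights or batch as a term. As deposited, 1 member and 1 probe set were called, and genes of the related lists called went to 0, against 21. For medial E11.5 against E10.5, 6 members (4 probe sets) were called, 3 to 7 (3 to 6 probe sets) with single arrays left out and 3 with only those groups fitted. Without medial E10.5 replicate 2, and without medial E11.5 replicate 2, 3 were called. As deposited, 0 members, 0 probe sets and 0 list genes (against 13) were called. On the deposited scale the all-gene medians were -1.03 and -0.66. Medial E10.5 against E9.7 had 1 member 2-fold apart, 3 as deposited and 2 with median centring.

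The Dlx1 minus Dlx2 value ranged from -1.18 to 0.060 with single arrays left out, turning sign without medial replicate 3. For the other pairs the ranges were -0.63 to -0.25 (Dlx5 minus Dlx6), -0.44 to -0.18 (Dlx3 minus Dlx4), -2.75 to -2.08 (Dlx1as minus Dlx1) and -2.15 to -1.79 (Dlx6os1 minus Dlx6). Between E11.5 and E10.5, values that did not pass turned sign: Dlx4 and its 1420595_at to -0.32 as deposited, Dlx4 to -0.076 with probe sets averaged, and Dlx3's 1422037_at to -0.60 as deposited, -0.047 without medial E10.5 replicate 2 and -0.23 without medial E11.5 replicate 1 (-0.23 to 0.26 over single arrays left out).

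Genes called in all numbered 554 at E10.5, against 2 as deposited, 358 centred, 2833 with array weights, 1254 with batch as a term, and 313 and 308 without lateral replicates 2 and 3. For E11.5 against E10.5 they numbered 828, against 1, 455 centred, 487 with only those groups, 2182 with batch as a term, and 544 and 515 without E11.5 replicates 1 and 2. With the replicate number as a block, 7 members at E10.5 and 6 for E11.5 against E10.5 were called. Except where a value shows it, the cause was not tested. Dim signal limits Dlx4 and Dlx1as in medial tissue.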
